A study of Mus musculus with 6 samples.

Results

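Transcripts of 9 Toll-like receptors and of Cd14, the protein that hands bacterial lipopolysaccharide to the receptor encoded by Tlr4, were measured by RNA sequencing in 6 mouse libraries. The 10 genes were taken by symbol from tables that list 21399 genes per library, and each of the 10 was present and above 0 in every library. Of the libraries, 3 were labelled KO and 3 WT. The KO and WT mice were the donors of primary microglia, the resident macrophages of the brain, and carried the CD45.2 form of the leukocyte protein CD45. In both groups the microglia went through oxygen and glucose deprivation, a culture model of ischaemia, and then reoxygenation, when macrophages from the peritoneum of CD45.1 mice joined the culture. All 6 libraries therefore share the deprivation, the reoxygenation and the added CD45.1 cells, which were not described as KO. The deleted gene is not named in the labels; the series title names PPARα, the nuclear receptor encoded by Ppara. The strain background, the age and sex of the mice, the length of each step and any driver of the deletion are unstated. The design text calls the sorted cells microglia and gives them the CD45.1 mark, while the sample labels name both cell types, so the sequenced population is not settled by the descriptions. Nothing states that the replicates of a group were independent cultures or mice. The p-values below therefore weigh differences against library-to-library spread alone, and that spread may be technical.

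Toll-like receptors are membrane proteins that detect conserved microbial molecules, and some of them also respond to material of damaged cells. Those of the cell surface recognise lipopeptides (Tlr2 paired with Tlr1 or Tlr6) and lipopolysaccharide (Tlr4 with its co-receptors). Those of endosomes recognise nucleic acids: double-stranded RNA (Tlr3), single-stranded RNA (Tlr7 and Tlr8), bacterial ribosomal RNA (Tlr13) and DNA with unmethylated CpG (Tlr9). Most signal through the adaptor Myd88, Tlr3 through Ticam1 and Tlr4 through both. Macrophages and microglia use Tlr2, Tlr4 and Cd14, while B cells carry mainly Tlr1, Tlr7 and Tlr9 and little Tlr8, Tlr13 or Cd14.

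In the mm10 build, whose positions are given here from GENCODE M21, the genes were located as follows. Tlr1 (chromosome 5, 64924679 to 64933563) and Tlr6 (chromosome 5, 64952031 to 64960097) are neighbours on the minus strand, 18467 bases apart with no gene between them. Tlr8 (chromosome X, 167242696 to 167264329) and Tlr7 (chromosome X, 167304929 to 167330558) are neighbours on the minus strand as well, 40599 bases apart. Tlr13 (chromosome X, 106143204 to 106160493) and Tlr9 (chromosome 9, 106222598 to 106226883) are on the plus strand. Tlr2 (chromosome 3, 83836272 to 83841767) and Tlr3 (chromosome 8, 45395665 to 45411080) are on the minus strand, and Tlr4 (chromosome 4, 66827584 to 66930284) is on the plus strand. Tlr3 overlaps 1 other annotated gene, the antisense Gm45542, whose reads could not be told apart without a stated strand setting; the other 9 genes overlap none. Of the 50-base windows in the longest coding transcript, 15.3% of those of Tlr1 and 12.6% of those of Tlr6 also occurred in another gene, for Tlr1 in Tlr6 alone and for Tlr6 mainly in Tlr1. The division of reads between Tlr1 and Tlr6 is uncertain to that extent. For Tlr3 the share was 1.56%, and for the remaining 7 genes it was 0%.

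Promoters are shown for 3 receptors with higher KO than WT levels (Tlr2, Tlr8 and Tlr13) and for Tlr9, whose levels overlapped between the groups. Each window runs from 250 bases before to 50 bases after the transcription start, 5′ to 3′ on the gene's own strand, from RefSeq on GRCm38.p6. The windows lie at chr3:83841559-83841858 (minus strand), chrX:167264280-167264579 (minus strand), chrX:106143025-106143324 (plus strand) and chr9:106222348-106222647 (plus strand). Capitals mark every match, on either strand, to 1 of 5 motifs: GAGGAA (the core bound by PU.1 and other ETS factors of myeloid and B cells), ATGCAAAT (the octamer), GGGA-N-TT-N-CC (NF-kB), TGANTCA (AP-1) and GAAA-NN-GAAA (interferon regulatory factors), where N is any base and hyphens only separate the parts.
Tlr2: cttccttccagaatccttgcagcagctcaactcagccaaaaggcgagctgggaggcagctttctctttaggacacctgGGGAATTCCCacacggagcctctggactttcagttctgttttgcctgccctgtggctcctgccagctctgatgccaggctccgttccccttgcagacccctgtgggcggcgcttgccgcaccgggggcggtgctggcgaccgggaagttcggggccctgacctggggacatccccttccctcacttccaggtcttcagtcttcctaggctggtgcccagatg
Tlr8: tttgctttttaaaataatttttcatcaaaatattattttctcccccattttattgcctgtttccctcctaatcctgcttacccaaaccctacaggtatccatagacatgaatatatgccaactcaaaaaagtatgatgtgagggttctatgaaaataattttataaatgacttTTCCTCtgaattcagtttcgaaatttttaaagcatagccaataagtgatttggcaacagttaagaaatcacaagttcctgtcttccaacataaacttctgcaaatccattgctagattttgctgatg
Tlr13: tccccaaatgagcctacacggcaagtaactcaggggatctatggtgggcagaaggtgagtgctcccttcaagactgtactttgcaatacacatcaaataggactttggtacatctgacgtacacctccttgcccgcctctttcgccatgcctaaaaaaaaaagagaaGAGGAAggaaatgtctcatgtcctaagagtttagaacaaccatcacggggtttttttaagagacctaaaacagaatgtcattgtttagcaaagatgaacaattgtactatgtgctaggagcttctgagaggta
Tlr9: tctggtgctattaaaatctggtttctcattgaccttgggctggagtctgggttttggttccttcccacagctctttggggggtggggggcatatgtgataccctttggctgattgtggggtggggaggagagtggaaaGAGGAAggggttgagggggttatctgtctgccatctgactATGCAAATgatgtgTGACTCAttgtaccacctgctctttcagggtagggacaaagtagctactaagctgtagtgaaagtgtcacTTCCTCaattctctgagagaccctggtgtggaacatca
The matches do not overlap each other. Tlr8 and Tlr13 each hold 1 GAGGAA match, 77 and 83 bases before the start, and Tlr9 holds 2, the first 112 bases before the start. GAGGAA occurred in 28.3% of 27025 mouse promoters of this length. The Tlr9 window also holds the octamer 72 bases before the start (found in 1.75% of promoters) and an AP-1 match, TGACTCA, 58 bases before it (7.93%). The Tlr2 window holds an NF-kB match, GGGAATTCCC, 172 bases before the start (1.17%) and no GAGGAA. Interferon regulatory factor matches, in 3.49% of promoters, occurred in none of these 4 windows. Promoters were listed for 7 of the 10 genes, and those of Tlr4, Tlr7 and Cd14 were not matched. Among the listed windows not shown, that of Tlr3, whose levels overlapped, holds an NF-kB match 211 bases before the start. A Tlr1 window holds GAGGAA 23 bases before the start. A Tlr6 window holds overlapping interferon regulatory factor matches 116 and 110 bases before the start.

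Levels are the authors' FPKM, fragments scaled to transcript length and library size, so that genes can be compared. FPKM values were whole multiples of 1 read in every gene that could be examined, so reads could be recovered. These summed to between 35289099 and 38092201 in KO libraries and between 34541898 and 36726700 in WT libraries, and each of the 10 genes had between 173 (Tlr3 in WT 3) and 30703 reads (Cd14 in KO 1). Differences below are KO minus WT on log2(FPKM + 1), tested with limma over the 10732 genes that averaged 1 FPKM or more, and adjusted by the Benjamini-Hochberg method. All 10 genes passed that filter.

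Marker lists were read in the same libraries. The 10 core macrophage markers, among them Csf1r, Adgre1 and Lyz2, were all above 0 in every library and summed to between 4469 and 10349 FPKM in KO libraries, against 1302 to 3598 FPKM in WT libraries. The mean log2(FPKM + 1) over them, called the core macrophage score here, was 6.96 ± 0.42 in KO and 5.52 ± 0.66 in WT (SD, n = 3), a difference of 1.44. All 10 had positive differences, 9 of them with an unadjusted limma p under 0.05, and 0 of the 10 passed the test. For 7 of the 10, every KO library lay above every WT library, against 9.75% of all genes tested. At an unadjusted limma p under 0.05, 8.86% of all genes tested were higher and 8.21% lower. The 10 B cell markers summed to between 4661 and 5119 FPKM in KO libraries and between 5258 and 6069 FPKM in WT libraries, with 0 passing. The peritoneal macrophage markers, for the cell type added to the cultures, summed to between 179 and 404 FPKM in KO libraries and between 76.9 and 143 FPKM in WT libraries. Of the 9 tested, 8 had positive differences, 7 had an unadjusted p under 0.05 and 1 passed: F5, which encodes coagulation factor V, rose to 24.3 ± 3.85 FPKM in KO, against 5.21 ± 0.536 FPKM in WT (SD, n = 3; log2 difference 2.02, limma adjusted p = 0.0053). Monocyte markers summed to between 1022 and 1094 FPKM in KO libraries and between 440 and 666 FPKM in WT libraries, with 0 of 6 passing and 4 of the 6 differences negative. T and NK cell markers summed to between 343 and 385 FPKM in KO libraries and between 377 and 470 FPKM in WT libraries; all 8 tested had negative differences, 5 of them with an unadjusted p under 0.05, and 0 passed. Microglia-defining markers were low: 9 of 10 were in the table, 4 stayed under 1 FPKM in every library, and the defining marker P2ry12 reached at most 1.09 FPKM. Mast cell markers summed to between 74.98 and 334 FPKM in KO libraries and between 8.10 and 396 FPKM in WT libraries, and were lowest in WT 1. In such bulk libraries, fewer cells of a type and less RNA per cell cannot be told apart.

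Cd14 and 4 Toll-like receptors, Tlr8, Tlr13, Tlr2 and Tlr4, stood higher in the libraries labelled KO, by 1.86 to 4.06 times in mean FPKM, and every KO library lay above every WT library for each. Tlr6 was higher by 1.20 times and Tlr1 lower, at 0.802 times, without overlap either. Tlr3, Tlr7 and Tlr9 overlapped between the groups. None of the 10 passed the test: limma called 0 of 10 higher and 0 of 10 lower at an adjusted p of 0.05, against 0.0280% of all genes tested called higher (3 genes) and 0% called lower. At an unadjusted p under 0.05, limma had 6 of the 10 higher and 1 lower, against 8.86% of all genes tested higher and 8.21% lower. Voom, run on recovered reads, called 0 of the 10 at an adjusted p under 0.05, beside 0.0466% of all genes tested higher and 0% lower. Its lowest adjusted p-values among the 10 were those of Cd14 and Tlr8, with differences of 2.04 and 1.78 (voom adjusted p = 0.078 each). Groups did not overlap for 7 of the 10 (6 with KO above WT and 1 with KO below WT), against 24.9% of all genes tested (9.75% and 15.2%). The difference was at least 0.7 for 5 of the 10, against 4.66% of all genes tested, and -0.7 or less for 0 of the 10, against 0.149%. The median difference was 0.50 over the 10 genes and -0.06 over all genes tested. The count called changed with the libraries used and their weights. WT 2 was the WT library with the highest core macrophage score. Without it, limma called 4 of the 10 higher (Tlr2, Cd14, Tlr8 and Tlr13), against 4.66% of all genes tested higher and 0.354% lower. Array weights gave WT 2 the least weight (0.313) and KO 2 the most (4.96). With them limma called 5 of 10 (Tlr4 as well), against 5.07% of all genes tested higher and 0.634% lower. The parts of WT 2 and KO 2 in these weighted calls cannot be told apart.

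**Figure D1:**
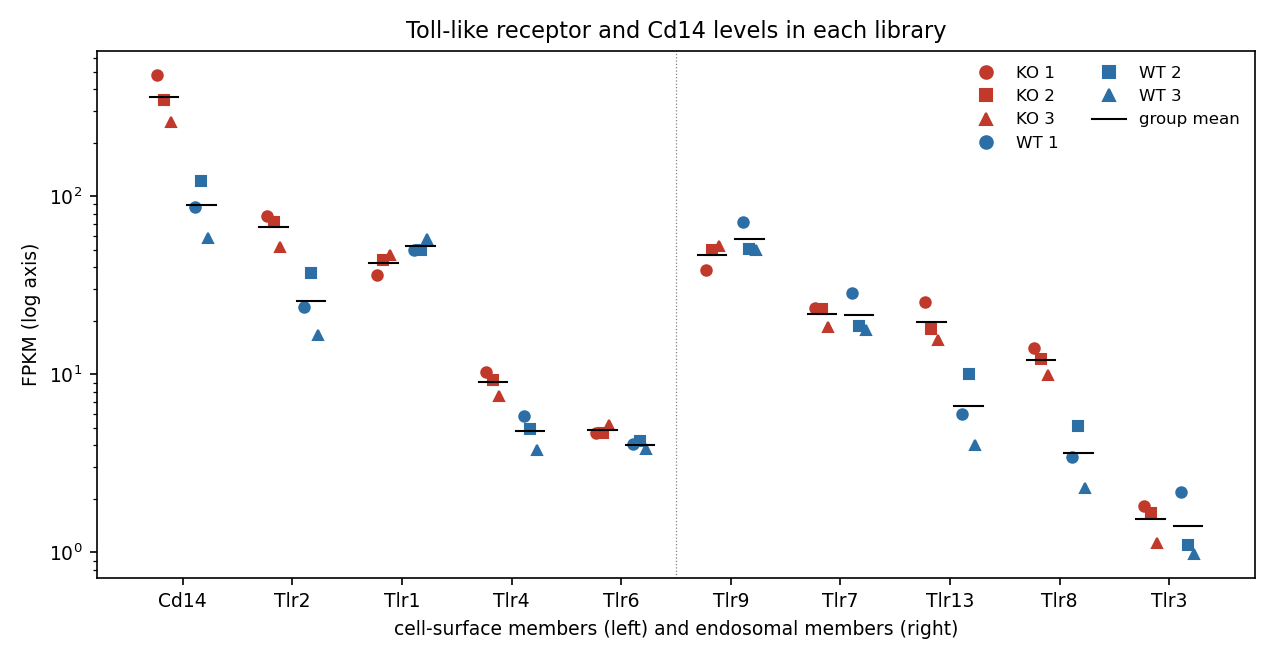
FPKM on a log axis of Cd14 and 9 Toll-like receptors in each library (KO in red, WT in blue, symbols for replicate numbers, bars for group means, n = 3 each). Cd14, Tlr2, Tlr4, Tlr13 and Tlr8 have all KO points above all WT points, while Tlr9, Tlr7 and Tlr3 overlap.

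Among the cell-surface genes, Cd14, which has no signalling domain and presents lipopolysaccharide to Tlr4, had the highest level and the widest difference of the 10. The gene lies on chromosome 18, minus strand. It stood at 482, 348 and 260 FPKM in KO libraries 1 to 3 and at 87.3, 122 and 58.4 FPKM in WT libraries 1 to 3. The lowest KO library had more than the highest WT library. The means were 363 ± 112 FPKM in KO and 89.4 ± 32.1 FPKM in WT (SD, n = 3), a ratio of 4.06, and the log2 difference was 2.03 (SE 0.30, limma adjusted p = 0.077).

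Tlr4, the lipopolysaccharide receptor itself, was far lower than its co-receptor. It had 10.3, 9.24 and 7.52 FPKM in KO libraries and 5.84, 4.92 and 3.74 FPKM in WT libraries. The groups did not overlap, and the ratio of means was 1.86. The log2 difference was 0.79 (SE 0.16, limma adjusted p = 0.11). Cd14 thus exceeded Tlr4 by 46.9, 37.7 and 34.6 times in KO libraries 1 to 3, against 15.0, 24.9 and 15.6 times in WT libraries 1 to 3. Ly96, the secreted partner that completes the lipopolysaccharide receptor, overlapped between the groups, with 8.13 ± 1.85 FPKM in KO and 6.83 ± 2.10 FPKM in WT (SD, n = 3; log2 difference 0.24, limma adjusted p = 0.61).

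Tlr2, the shared chain of the lipopeptide receptors, had 77.4, 72.1 and 51.7 FPKM in KO libraries and 24.01, 37.2 and 16.7 FPKM in WT libraries. All KO values were above all WT values, with a ratio of means of 2.58. The log2 difference was 1.39 (SE 0.28, limma adjusted p = 0.11).

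Its partner for triacylated lipopeptides, Tlr1, had lower KO values, with 36.3, 43.6 and 46.9 FPKM in KO libraries and 50.3, 50.1 and 57.9 FPKM in WT libraries. Here every KO library was below every WT library, with a log2 difference of -0.32 (SE 0.12, limma adjusted p = 0.24). Tlr6, the partner for diacylated lipopeptides, was low throughout, with 4.68, 4.67 and 5.18 FPKM in KO libraries and 4.07, 4.22 and 3.82 FPKM in WT libraries. The groups did not overlap, but the log2 difference was only 0.21 (SE 0.09, limma adjusted p = 0.28). Tlr2 was 2.14, 1.65 and 1.10 times as abundant as Tlr1 in KO libraries 1 to 3, and 0.478, 0.743 and 0.288 times in WT libraries 1 to 3. In KO libraries Tlr2 exceeded Tlr1 each time, and in WT libraries Tlr1 exceeded Tlr2 each time.

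Among the endosomal genes, Tlr8 and Tlr13 differed and the 3 others overlapped. Tlr8, an RNA sensor whose ligands in the mouse are less well defined than in humans, had 14.1, 12.1 and 9.88 FPKM in KO libraries and 3.46, 5.14 and 2.32 FPKM in WT libraries. Its KO values were all above its WT values, at a ratio of means of 3.31. The log2 difference was 1.52 (SE 0.23, limma adjusted p = 0.077).

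Tlr13, the sensor of bacterial ribosomal RNA that mice have and humans lack, had 25.5, 17.9 and 15.5 FPKM in KO libraries and 5.98, 10.1 and 3.99 FPKM in WT libraries. The groups were again apart, with a ratio of means of 2.94 and a log2 difference of 1.47 (SE 0.30, limma adjusted p = 0.11). WT 2 was the highest WT library for Tlr13, Tlr8, Tlr2 and Cd14 alike.

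Tlr7, the neighbour of Tlr8 and a receptor for single-stranded RNA, did not follow it. It had 23.7, 23.3 and 18.4 FPKM in KO libraries and 28.5, 18.8 and 17.8 FPKM in WT libraries. WT 1 was the highest of all 6 and the groups overlapped, with a log2 difference of 0.03 (SE 0.19, limma adjusted p = 0.95) whose sign turned under 1 of the scalings tried. Tlr8 reached 0.594, 0.522 and 0.538 of the Tlr7 level in KO libraries 1 to 3, against 0.121, 0.274 and 0.130 in WT libraries 1 to 3.

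Tlr9, the receptor for CpG DNA, had 38.5, 49.8 and 52.7 FPKM in KO libraries and 71.6, 50.4 and 50.1 FPKM in WT libraries. WT 1 was the highest library here too and KO 1 the lowest, and the other 4 lay between 49.8 and 52.7 FPKM. The log2 difference was -0.27 (SE 0.17, limma adjusted p = 0.46). Tlr3, the receptor for double-stranded RNA, was the lowest of the 10, with 1.82, 1.67 and 1.13 FPKM in KO libraries and 2.17, 1.09 and 0.982 FPKM in WT libraries. It overlapped between the groups (log2 difference 0.10, SE 0.20, limma adjusted p = 0.83), and WT 1 was again the highest library. As single values, Cd14, Tlr1, Tlr2, Tlr4, Tlr6, Tlr8 and Tlr13 each gave an exact two-sided permutation p = 0.1, the smallest that 3 against 3 libraries allow. The exact p was 0.4 for Tlr9, 0.8 for Tlr3 and 1.0 for Tlr7.

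By mean level, the order in KO libraries was Cd14, Tlr2, Tlr9, Tlr1, Tlr7, Tlr13, Tlr8, Tlr4, Tlr6 and Tlr3. Ranges of neighbours overlapped for Tlr2 and Tlr9, for Tlr9 and Tlr1, for Tlr7 and Tlr13, and for Tlr8 and Tlr4. In WT libraries the order was Cd14, Tlr9, Tlr1, Tlr2, Tlr7, Tlr13, Tlr4, Tlr6, Tlr8 and Tlr3. There, neighbouring ranges were apart only between Tlr1 and Tlr2, between Tlr7 and Tlr13, and between Tlr8 and Tlr3.

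The 9 receptors together summed to 232, 234 and 209 FPKM in KO libraries and to 196, 182 and 157 FPKM in WT libraries. Tlr2, Tlr4, Tlr8 and Tlr13 made up 54.8%, 47.5% and 40.5% of that sum in KO libraries 1 to 3, against 20.1%, 31.5% and 16.99% in WT libraries 1 to 3. Tlr1, Tlr7 and Tlr9 made up 42.4%, 49.8% and 56.5% in KO libraries, against 76.8%, 65.5% and 79.95% in WT libraries. The KO and WT libraries did not overlap in either share. Because these sets of receptors were put together after their values were seen, the shares are a description and were not tested. The 5 endosomal receptors as a class made up 44.6% to 46.7% of the sum in KO libraries and 47.0% to 57.0% in WT libraries.

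**Figure D2:**
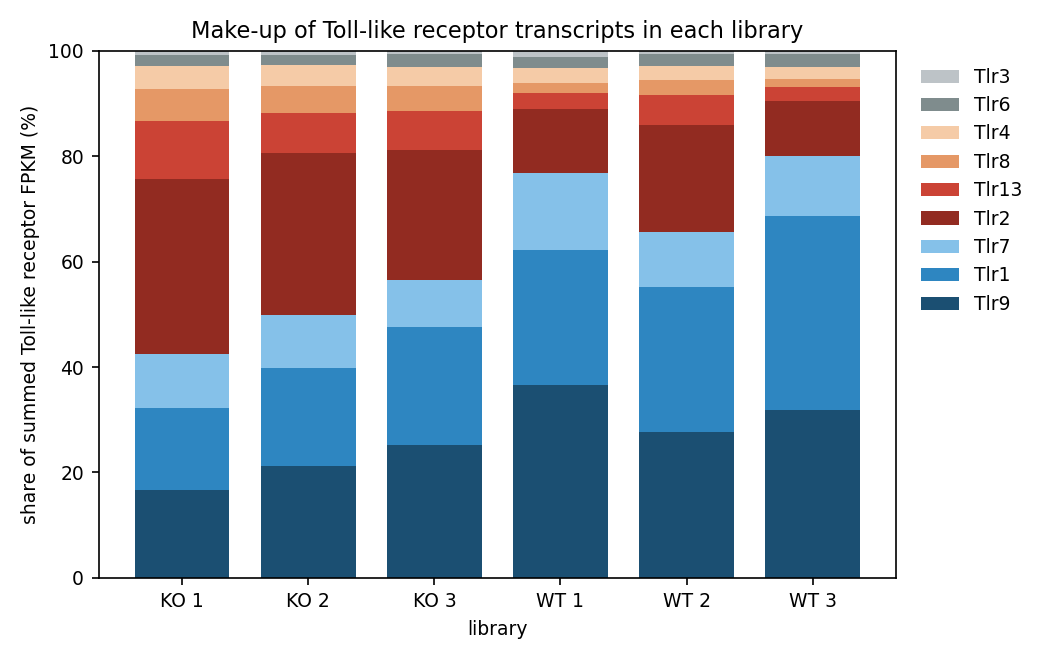
Share of the summed FPKM of 9 Toll-like receptors taken by each receptor, in percent, with 1 stacked bar per library. Tlr2 (dark red) takes 24.8% to 33.3% in KO libraries and 10.6% to 20.5% in WT libraries, and Tlr9 with Tlr1 (dark and mid blue) take more in WT libraries.

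The order of libraries was set beside the macrophage markers. By core macrophage score the libraries ranked KO 1, KO 2, KO 3, WT 2, WT 1 and WT 3, with scores of 7.41, 6.89, 6.57, 6.18, 5.53 and 4.86. Cd14, Tlr2, Tlr8 and Tlr13 ranked the 6 libraries in exactly this order, within each group as well as between groups, and the other 6 genes did not. The share of all genes tested that keep this order was not counted, so the order is not shown to be particular to these 4. A Pearson r above 0.95 with each of the 4 was reached by 3.40% (Tlr8) to 4.69% (Tlr13) of genes tested. Tlr1 ranked them in exactly the reverse order. Tlr4 kept the order among KO libraries but had WT 1 above WT 2.

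**Figure D3:**
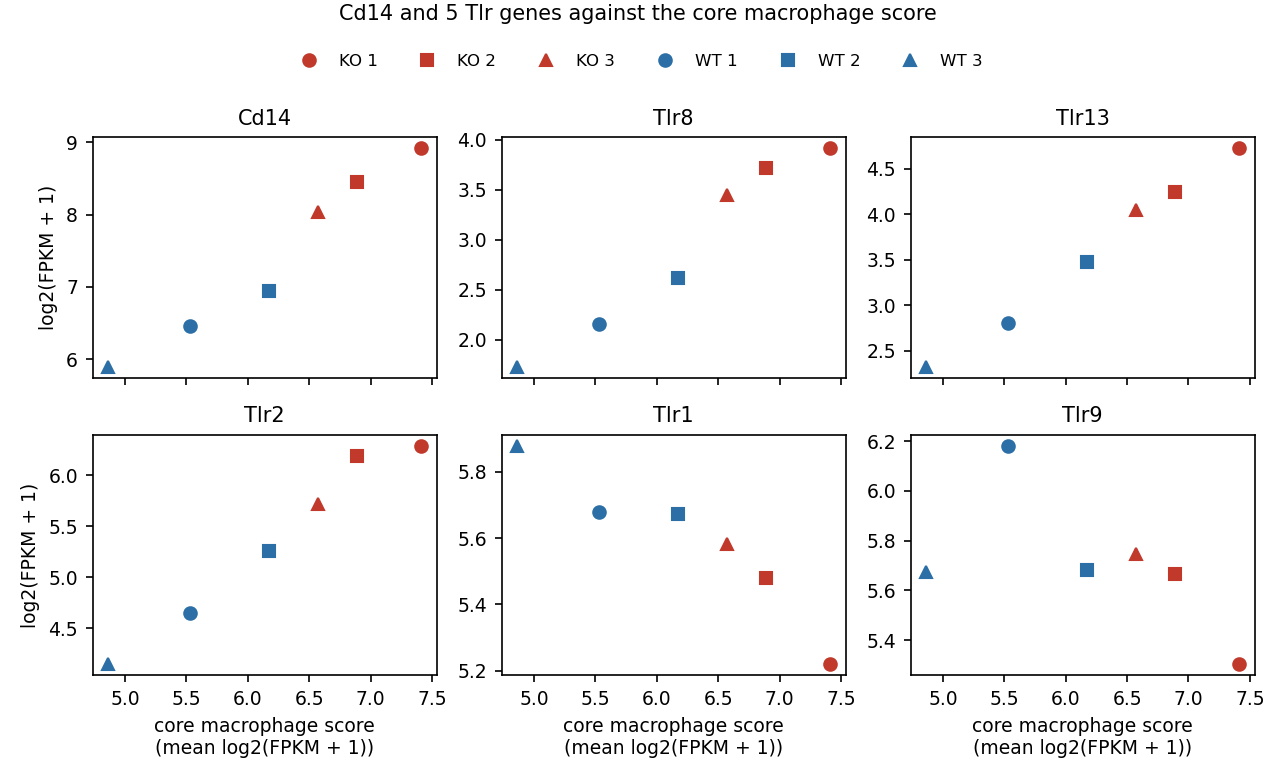
Level of Cd14 and 5 receptors, as log2(FPKM + 1), against the core macrophage score of the same library (KO in red, WT in blue, 6 points a panel, no line fitted). Cd14, Tlr8, Tlr13 and Tlr2 keep the library order of the score, whereas Tlr1 is highest in WT 3, the library with the lowest score, and Tlr9 is highest in WT 1.

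Set against the core macrophage score of the same library, a comparison chosen after the data were seen, Tlr8, Tlr13 and Tlr2 showed differences of 0.09, 0.04 and -0.05 (log2), with overlapping groups and exact two-sided permutation p-values of 0.6, 0.5 and 0.9 (n = 3 each). Cd14 was higher by 0.59, with 1.503, 1.56 and 1.46 in KO libraries 1 to 3 and 0.94, 0.77 and 1.03 in WT libraries 1 to 3 (exact p = 0.1, the smallest possible). Against Csf1r alone, the receptor for the macrophage growth factor CSF1, Cd14 overlapped between the groups, with FPKM ratios of 1.86, 1.85 and 1.64 in KO libraries and 1.72, 1.29 and 1.84 in WT libraries. Tlr13 stood at 0.0984, 0.0952 and 0.0977 of the Csf1r level in KO libraries and at 0.118, 0.106 and 0.125 in WT libraries. Tlr2 stood at 0.299, 0.383 and 0.326 of the Csf1r level in KO libraries and at 0.473, 0.391 and 0.523 in WT libraries. For Tlr4 the ratio was 0.0396, 0.0491 and 0.0473 in KO libraries and 0.115, 0.0517 and 0.117 in WT libraries. These 3 ratios were each lower in every KO library than in every WT library, while that of Tlr8 to Csf1r overlapped. Csf1r is a single marker and had the largest difference of the 10 core macrophage markers, which ranged from 0.49 (Cybb) to 1.86 (Csf1r). Ratios to the other core markers were not taken, so these results are stated for Csf1r only and may differ with another marker. Tlr4 was lower by 0.65 relative to the score with overlapping groups (exact p = 0.3). Tlr6, Tlr3, Tlr7, Tlr9 and Tlr1 were lower by 1.22 to 1.75, with no overlap (exact p = 0.1 each). The score itself was higher in KO by 1.44 with no overlap, so a gene level between the groups comes out lower by about as much. For these genes, the lack of overlap and the p-values therefore say little beyond the difference of the score. Values relative to the score also depend on the pseudocount of 1, which shrinks differences of low genes. With a pseudocount of 0.1, the differences before subtraction were 1.76 for Tlr8, 1.61 for Tlr13 and 1.42 for Tlr2. The score was not recomputed with that pseudocount. When the score entered the limma model as a covariate, the difference was 0.77 for Cd14, 0.61 for Tlr8, 0.34 for Tlr4, 0.26 for Tlr2 and 0.24 for Tlr13, with adjusted p-values from 0.52 to 0.61, and 0% of all genes tested were called in either direction. The score itself differs between the groups, so the covariate and the label cannot be fully told apart in 6 libraries.

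**Figure D4:**
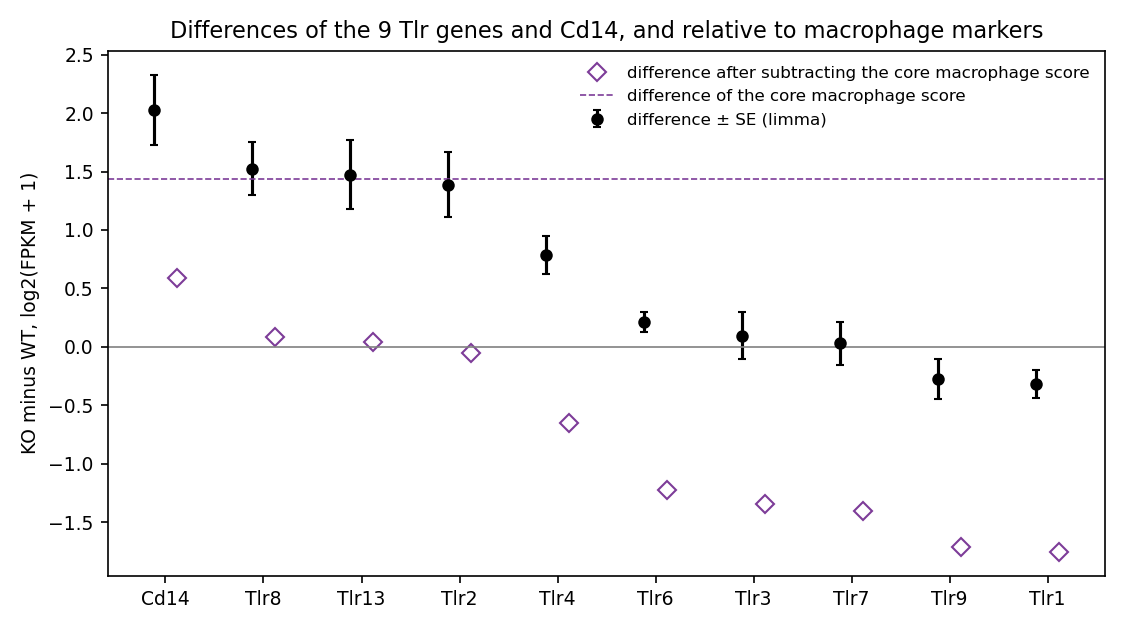
KO minus WT difference of each gene on log2(FPKM + 1) with its limma standard error (black), and the same difference after the core macrophage score of each library was subtracted (open diamonds); the dashed line is the difference of that score, 1.44. Tlr8, Tlr13 and Tlr2 lie at the dashed line, Cd14 above it and the other 6 genes below it.

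Tlr1 and Tlr9 were also set beside Cd79a, which encodes a signalling chain of the B cell antigen receptor. Tlr1 stood at 0.0203, 0.0260 and 0.0260 of the Cd79a level in KO libraries and at 0.0259, 0.0224 and 0.0288 in WT libraries. Tlr9 stood at 0.0215, 0.0297 and 0.0291 in KO libraries and at 0.0369, 0.0225 and 0.0249 in WT libraries. Both ratios overlapped between the groups, whereas Tlr1 itself had not. Cd79a is a single marker from the list of 10 B cell markers, and ratios to the others were not taken. The overlap is therefore stated for Cd79a only and may differ with another marker. The part of B cell content in the Tlr1 and Tlr9 values was not tested. The B cell score was 7.74 ± 0.12 in KO and 7.96 ± 0.10 in WT (SD, n = 3), and all 10 of its markers had negative differences, with a median of -0.23.

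The rest of the pathway was read from 6 lists by role. Of 71 genes listed, 70 were in the table and 64 were tested, and limma called 0 higher and 0 lower, against 0.0280% and 0% of all genes tested. At an unadjusted p under 0.05, 7 of the 64 were higher and 5 lower, near the 8.86% and 8.21% of all genes tested. Groups did not overlap with KO above for 8 and with KO below for 5, against 9.75% and 15.2% of all genes tested. The median difference was -0.02, beside -0.06 over all genes tested.

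Co-receptors and chaperones were mostly level. Cd180, a receptor of B cells that resembles Tlr4, stood at 72.9 ± 6.07 FPKM in KO and 77.4 ± 4.26 FPKM in WT, and its partner Ly86 at 126 ± 8.74 FPKM in KO and 129 ± 9.18 FPKM in WT (SD, n = 3). Unc93b1, which carries the endosomal receptors out of the endoplasmic reticulum, was the most abundant of the named pathway genes, at 430 ± 23.6 FPKM in KO and 433 ± 15.9 FPKM in WT, a log2 difference of -0.01. Hsp90b1, the chaperone that folds most of the family, stood at 257 ± 19.4 FPKM in KO and 240 ± 21.2 FPKM in WT. Tlr5, the flagellin receptor, was near the detection limit, at 0.0849 ± 0.0253 FPKM in KO and 0.0522 ± 0.0191 FPKM in WT. Of the 10 genes of this list tested, 5 had positive and 5 negative differences, and 1 was apart between the groups, against 24.9% of all genes tested. That gene was Cd36, a scavenger receptor that assists Tlr2 with Tlr6, with a difference of 1.34 (limma adjusted p = 0.16), named after its value was seen.

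No transcript of a signalling protein passed the test. Among 7 adaptors tested, the median difference was 0.03, and 0 were apart between the groups, against 24.9% of all genes tested. Myd88, the adaptor of most receptors, stood at 46.0 ± 3.62 FPKM in KO and 42.8 ± 4.82 FPKM in WT, and Tirap, its bridge to Tlr2 and Tlr4, at 5.95 ± 0.541 FPKM in KO and 5.81 ± 0.858 FPKM in WT (SD, n = 3). Ticam1, the adaptor of Tlr3, stood at 19.2 ± 0.621 FPKM in KO and 22.3 ± 3.82 FPKM in WT, and Ticam2, its bridge to Tlr4, at 6.66 ± 0.491 FPKM in KO and 5.13 ± 1.15 FPKM in WT. Among 17 kinases and ubiquitin ligases, 3 had positive and 14 negative differences, with a median of -0.02. Irak4, the first kinase, stood at 18.4 ± 0.483 FPKM in KO and 18.6 ± 0.583 FPKM in WT, a log2 difference of -0.01. Traf6, the ubiquitin ligase that follows it, and Tbk1, the kinase of the interferon branch, had differences of -0.01 and -0.05. Groups were apart for 3 of the 17, against 24.9% of all genes tested in either direction. These 3 were named after their values were seen. The kinase gene Ikbke stood at 20.5 ± 1.81 FPKM in KO and 15.2 ± 1.78 FPKM in WT (log2 difference 0.41, limma adjusted p = 0.14). Tab1, a partner of the kinase encoded by Map3k7, and Ikbkb, a kinase of the NF-kB branch, were lower in KO, with differences of -0.26 (limma adjusted p = 0.25) and -0.18 (limma adjusted p = 0.41).

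Of 7 transcription factors, 6 had negative differences, with a median of -0.13. Irf3, which drives interferon genes downstream of Ticam1, stood at 42.9 ± 1.00 FPKM in KO and 49.7 ± 3.96 FPKM in WT (SD, n = 3), without overlap (log2 difference -0.20, limma adjusted p = 0.29). Irf8, a factor of myeloid and B cells named after its value was seen, was apart in the same direction, at 127 ± 3.50 FPKM in KO and 145 ± 3.34 FPKM in WT (log2 difference -0.19, limma adjusted p = 0.26). Irf5 and Nfkb1 overlapped, with differences of 0.04 and -0.10. Irf7, an interferon-induced factor, had 144, 96.9 and 52.3 FPKM in KO libraries 1 to 3 and 146, 109 and 51.2 FPKM in WT libraries 1 to 3. It fell with the replicate number in both groups and differed more between libraries than between groups. Of 12 inhibitors, 5 had positive and 7 negative differences. Irak3, a pseudokinase that restrains the pathway in macrophages, stood at 22.1 ± 2.03 FPKM in KO and 18.3 ± 1.31 FPKM in WT, without overlap (log2 difference 0.26, limma adjusted p = 0.24). Tollip was apart as well, by 0.11, and Tnfaip3, an enzyme that edits ubiquitin chains, overlapped at 0.08. Dok3, an adaptor that dampens signalling in myeloid and B cells and was named after its value was seen, was apart with KO below WT, at 150 ± 2.11 FPKM in KO and 181 ± 10.8 FPKM in WT (log2 difference -0.26, limma adjusted p = 0.19).

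Response genes were the list with the widest spread. Of 11 tested, 8 had positive and 3 negative differences, with a median of 0.41. Of the 11, 4 were apart with KO above WT, against 9.75% of all genes tested. Il1b, a fever-inducing cytokine, had 187, 199 and 153 FPKM in KO libraries and 53.0, 89.4 and 37.9 FPKM in WT libraries. All KO values were above all WT values, with a log2 difference of 1.64 (SE 0.28, limma adjusted p = 0.10). The other 3 apart were the chemokine genes Cxcl1 and Cxcl2 and the prostaglandin synthase Ptgs2, with differences of 1.36, 1.58 and 1.47 (limma adjusted p from 0.13 to 0.19), named after their values were seen. Tnf, at 3.96 ± 0.406 FPKM in KO and 3.94 ± 1.91 FPKM in WT, and Il6, at 3.18 ± 1.71 FPKM in KO and 2.01 ± 0.454 FPKM in WT, overlapped, as did the anti-inflammatory cytokine Il10, at 4.72 ± 0.438 FPKM in KO and 4.94 ± 0.854 FPKM in WT (SD, n = 3). The 5 pathway genes with differences of at least 0.7, Cd36, Il1b, Cxcl1, Cxcl2 and Ptgs2, stood beside the core macrophage score with its difference of 1.44, and the part of macrophage content in their values was not tested.

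**Figure D5:**
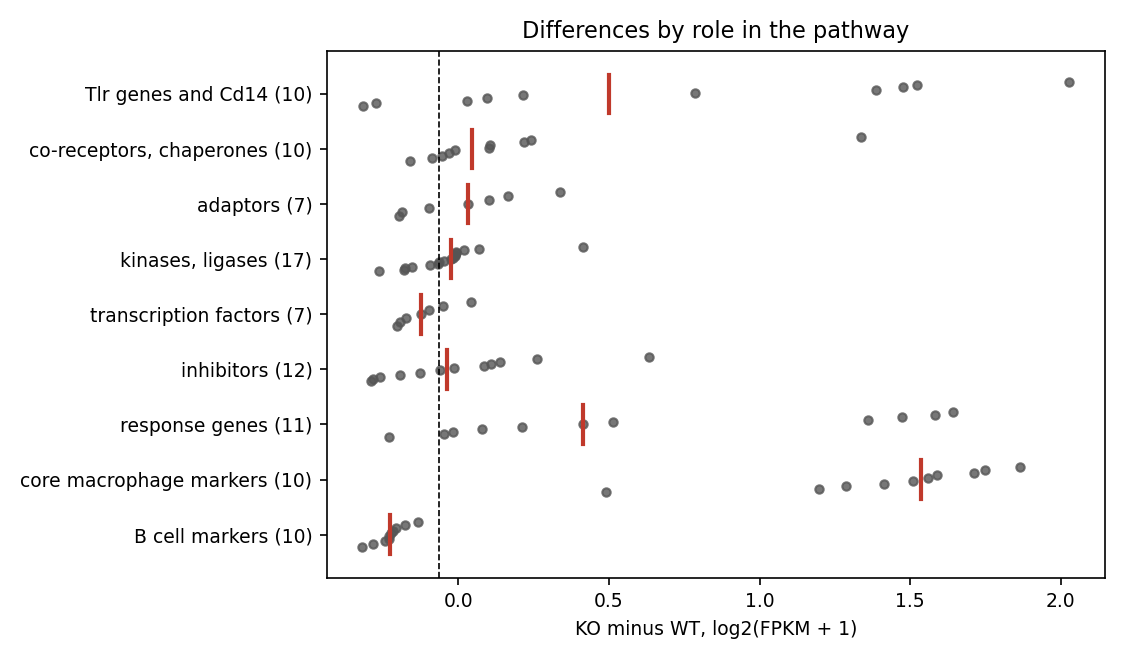
KO minus WT difference on log2(FPKM + 1) of each tested gene (grey points), by role, with the number of genes in brackets, the list median in red and the median of all genes tested as a dashed line at -0.06. Signalling lists centre near the dashed line, while the receptors with Cd14 and the response genes spread toward the core macrophage markers, whose median is 1.53.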

How the data were processed

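Total RNA was extracted with TRIzol and made into libraries with the VAHTS Universal V6 kit, per the labels' protocols. The authors deposited FPKM values in 1 table per library; per the submitters' processing notes, reads were placed on mm10. Not given in the sources used here were the aligner, the counter, its strand setting and the annotation. Groups came from the sample titles.

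Genes that averaged 1 FPKM or more were tested on log2(FPKM + 1), a scale that shrinks fold changes of low genes, with limma 3.58.1 (R 4.3.3; moderated by eBayes with a trend) and Benjamini-Hochberg adjustment at 0.05. Because FPKM values are not counts, whole reads were recovered from their steps (18092 of 18092 genes examined, within 0.002 reads) and used only for voom and to state depth; if all 6 read counts of a gene share a divisor, it goes unseen. For single values, two-sided exact permutation tests were used. Both scripts were checked on simulated data.

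The genes, the lists and the settings were chosen with earlier results of these data known. Named were the 10 genes, 24 pathway genes chosen by role, any pathway gene that passed, and the 2 genes most like each of the 10 in pattern; those for Tlr6, and 1 microglia marker, are not reported here. Promoter sequences and motif shares came from RefSeq (GRCm38.p6). Other software was scipy 1.17.1, numpy 2.4.6 and pandas 2.3.3 under Python 3.11.15, with matplotlib 3.10.9 for figures. Alternatives were a filter at 5 FPKM or none, pseudocounts of 0.1 and 5, 4 scalings, 3 variance models, the replicate number as a block, the core macrophage score as a covariate, voom, a threshold of 0.1 and leaving out each library.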

Additional observations from a re-analysis of the deposited data

How the results depend on the processing

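Over all genes tested, limma called 3 higher and 0 lower. The count higher became 6 with a pseudocount of 5, 0 with no filter, 6 after rescaling without mitochondrial and ribosomal protein genes, 544 with array weights, 11 with the replicate block, 0 with the core macrophage score as a covariate, 5 with voom and 47 at a threshold of 0.1. The count lower became 68 with array weights and 3 at a threshold of 0.1. Leaving out 1 library gave 0 to 500 genes higher and 0 to 38 lower, with the highest counts without WT 2. Of the 10 genes, 0 were called higher; this became 5 with array weights, 1 (Cd14) with the replicate block, 2 at a threshold of 0.1 and 0 to 4 when 1 library was left out.

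Deviations of same-numbered libraries correlated at -0.21, -0.38 and 0.27 for numbers 1 to 3. KO 1 correlated best with WT 2, KO 2 with WT 3 and KO 3 with WT 3. Single genes could still follow the number, as Irf7 did in both groups. Whether same-numbered libraries were handled together was not tested. With the block, Cd14 had a difference of 2.03 (limma adjusted p = 0.047).

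Signs changed for Tlr1, Tlr3 and Tlr7, each near 0 or, for Tlr1, only with the covariate (0.0275). Tlr3 was -0.003 with array weights, -0.16 with the covariate and -0.0309 to 0.309 when 1 library was left out. Tlr7 was -0.0432 after rescaling without mitochondrial and ribosomal protein genes, -0.0508 with array weights, -0.19 with the covariate and -0.0921 to 0.23 when 1 library was left out. After subtraction of the core macrophage score, added after the data were seen, Tlr2 was -0.0498, Tlr4 -0.65, Tlr6 -1.22, Tlr3 -1.34 and Tlr7 -1.41. Each value after subtraction is the gene's own difference less that of the score, 1.44, so those signs follow from the subtraction. The cause of the other sign changes was not tested. Over the alternatives other than that subtraction, Cd14 ranged from 0.77 to 2.29, Tlr8 from 0.61 to 1.78, Tlr13 from 0.24 to 1.78, Tlr2 from 0.26 to 1.67 and Tlr4 from 0.34 to 0.91, always positive. Tlr3 and Tlr6 could not be fitted with a filter at 5 FPKM. With 3 libraries a group, a single value cannot reach an exact p below 0.1.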

Other observations

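For 9 of the 10 genes, the tested genes with the most similar pattern were found by Pearson's r of log2(FPKM + 1) over the 6 libraries, as a description of libraries that share their depth and group labels. The nearest were Stard8 (0.9999) and Dapk1 (0.9991) for Cd14, Itsn1 (0.9995) and Cd300ld (0.9993) for Tlr13, Csf2rb2 (0.9988) and Gpr35 (0.9984) for Tlr8, and Septin8 (0.9987) and Spats2 (0.9980) for Tlr2. For Tlr4 they were Cers6 (0.9973) and Acaca (0.9965), and for Tlr1 Pfkfb1 (0.9989) and Mppe1 (0.9983). For Tlr9 they were AU041133 (0.9913) and Ankrd13c (0.9867), for Tlr7 Agrn (0.9826) and Cpt1a (0.9811), and for Tlr3 Fbxo42 (0.9768) and Gm5431 (0.9681). An r above 0.95 was reached by 4.69% of genes tested for Tlr13, 3.76% for Tlr2, 3.59% for Cd14 and 3.40% for Tlr8, but by only 8 genes for Tlr3 and 7 for Tlr7.

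Some further ratios between genes were taken, which are not all ratios of receptors that pair. Tlr1 was 7.75, 9.35 and 9.07 times as abundant as Tlr6 in KO libraries 1 to 3 and 12.3, 11.9 and 15.1 times in WT libraries 1 to 3. Tlr9 exceeded Tlr13 by 1.51, 2.78 and 3.39 times in KO libraries and by 11.97, 4.99 and 12.6 times in WT libraries. Ly96 stood at 0.699, 1.11 and 0.925 of the Tlr4 level in KO libraries and at 1.19, 1.80 and 1.25 in WT libraries. In each of these 3 ratios the groups did not overlap, and none was tested. Each ratio carries the differences of its genes given above, and the division of reads between Tlr1 and Tlr6 is uncertain as stated.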
